A study of Sus scrofa with 8 samples.

Results

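The 9 genes described here are the transcriptional coactivators YAP1 and WWTR1 (which encodes TAZ), the 4 TEAD transcription factors, and 3 widely used target genes of these proteins, CTGF (now named CCN2), ANKRD1 and AMOTL2. Each locus was taken as the pig RefSeq gene of assembly Sscrofa11.1 with 10 kb on either side. All 9 were found, among 16298 named protein-coding genes of the autosomes and the X chromosome. The measurement was H3K27ac ChIP-seq, which sequences DNA bound to histone H3 acetylated at lysine 27, a mark of active promoters and enhancers. The study compared pig pgEpiSC with pEF. pgEpiSC are pre-gastrulation epiblast stem cells from embryonic epiblast of day 10, and pEF are embryonic fibroblasts of day 30. No treatment is named for either cell type. There were 2 H3K27ac libraries of each type, numbered 1 and 4 for pgEpiSC and 1 and 2 for pEF, and each had its own input library of unselected DNA. The labels do not say whether the 2 libraries of a type came from separate lines, animals or cultures, so p-values measure only the spread between these libraries, which may be technical.

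In the Hippo pathway of human and mouse cells, the kinases MST1 and MST2 (genes STK4 and STK3) activate LATS1 and LATS2, which phosphorylate YAP and TAZ and hold them in the cytoplasm. When the kinases are quiet, as in spread cells on a stiff substrate, YAP and TAZ enter the nucleus. They do not bind DNA themselves and are brought to promoters and enhancers by TEAD proteins, where genes of matrix, adhesion and growth are switched on. The pathway also takes part in the earliest cell decisions of the mouse embryo, where TEAD4 is needed for the trophectoderm.

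The data were lists of islands, stretches in which ChIP reads pile up above the input, 1 list per library. The pgEpiSC lists held 64620 islands in library 1 and 74208 in library 4, with 29679982 and 38230571 ChIP reads inside them, and the pEF lists held 62261 islands in library 1 and 57790 in library 2, with 42444995 and 46383051 reads. Islands of pgEpiSC were wider and less enriched: the median fold over input was 1.80 and 1.67 in the pgEpiSC libraries, against 3.47 and 3.46 in the pEF libraries, and the median width was 4.8 and 4.2 kb, against 3.0 and 3.2 kb. Every comparison below rests on libraries that differ in this way, and the part of this difference in each result was not tested beyond the alternatives given. Of 5 epiblast markers (POU5F1, SOX2, LIN28A, SALL4 and CDH1), 5 had a longer acetylated length in pgEpiSC, with sums of 170 to 173 kb in pgEpiSC, against 20.8 to 27.4 kb in pEF. Of 5 fibroblast markers, 4 were longer in pEF, with sums of 24.3 to 50.2 kb in pgEpiSC, against 233 to 236 kb in pEF, and COL1A2, COL3A1 and TWIST1 had no island in either pgEpiSC library. Markers of other cell types also carried islands: the endothelial sums were 70.3 to 78.9 kb in pgEpiSC, against 15.6 to 23.4 kb in pEF, and the keratinocyte sums were 26.0 to 33.0 kb in pgEpiSC, against 2.8 to 8.8 kb in pEF. Of the 5 keratinocyte markers listed, only 4 could be measured. The blood sums were 51.1 to 62.6 kb in pgEpiSC, against 23.4 to 26.8 kb in pEF, and the skeletal muscle sums were 33.3 to 49.7 kb in pgEpiSC, against 30.4 to 40.8 kb in pEF. The 5 trophectoderm markers had nearly equal sums, 27.6 to 28.2 kb in pgEpiSC, against 28.0 to 31.4 kb in pEF, with 1 gene longer in pgEpiSC and 2 in pEF, and CDX2 had no island in either type. KDR, an endothelial receptor, had no island in either type, and KRT5 and KRT1 had none either. Whether other cells had a part in the results was not tested. In bulk ChIP, fewer cells with acetylated chromatin and less acetylation per cell cannot be told apart.

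Acetylated length, the kilobases covered by islands in a gene and its flanks, was larger in pgEpiSC at TEAD2 and TEAD4 and larger in pEF at WWTR1, CTGF, ANKRD1 and AMOTL2. YAP1, TEAD1 and TEAD3 did not pass the test. The test was limma on log2(kb + 1) over all 16298 genes, with Benjamini-Hochberg adjustment and a threshold of 0.05, and fold changes are on that scale, as pgEpiSC over pEF. Of all genes, 31.9% were longer in pgEpiSC and 10.9% in pEF, so 2 of 9 genes longer in pgEpiSC and 4 of 9 longer in pEF stand beside an opposite balance over the genome. The median log2 fold change was -0.15 over the 9 genes and 0.46 over all genes. After centring of the libraries on their median genes, 22.8% of genes were longer in pgEpiSC and 24.6% in pEF, and YAP1 and TEAD3 joined the genes longer in pEF, which made 6 of 9. The plot of the share of each locus covered by islands gives the values of all 4 libraries.

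**Figure D1:**
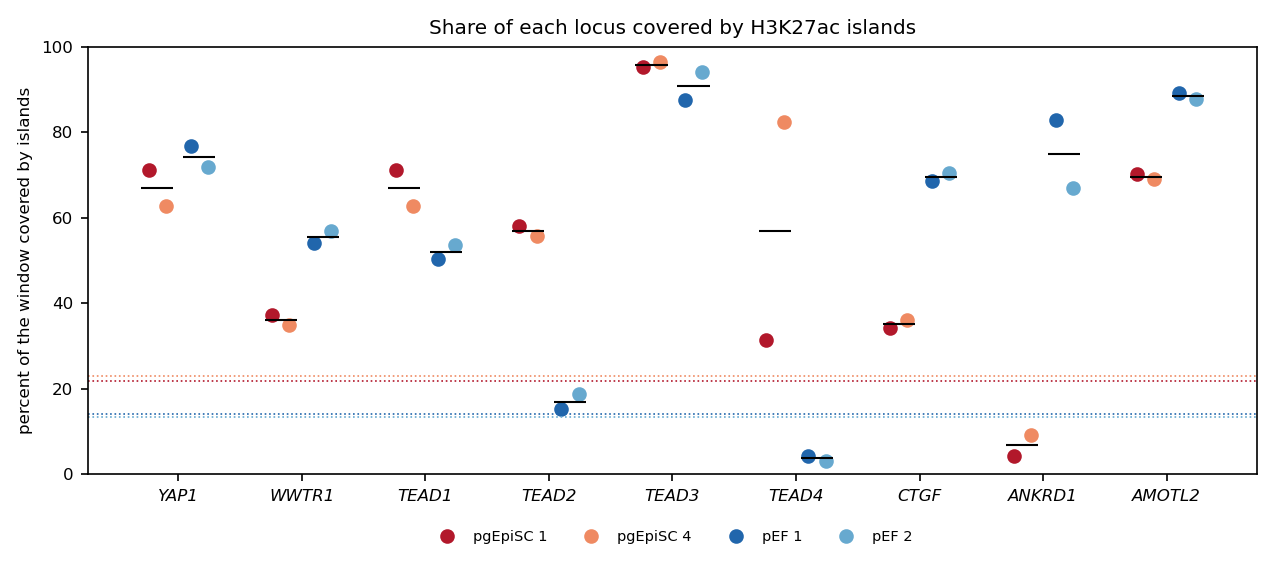
Percent of each locus (gene with 10 kb on either side) covered by H3K27ac islands, 1 point per library, with black bars for the mean of the 2 libraries of a type and dotted lines for the median gene of each library in the library's colour. ANKRD1 lies between 4.32% and 9.14% in pgEpiSC and between 67% and 82.8% in pEF, and TEAD4 shows the opposite order with a wide gap between the pgEpiSC libraries.

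YAP1, the coactivator after which the pathway's output is named, was acetylated over most of its length in both cell types. Islands covered 94.8 and 83.5 kb in pgEpiSC, against 102.5 and 95.7 kb in pEF. The ranges nearly meet, with pgEpiSC 1 just under pEF 2, and the log2 fold change of -0.15 ± 0.12 (SE) did not pass (limma adjusted p = 0.381). The shape of the acetylation was not alike, as the map of islands shows. At the low-coordinate end of YAP1, pgEpiSC had islands of 26.2 and 25 kb with 3.71- and 3.58-fold enrichment, whereas pEF had islands of 8.0 and 7.0 kb with 17- and 16-fold enrichment. Further into the gene, pgEpiSC had islands of 25.8 and 24.8 kb with 2.90- and 2.68-fold enrichment. Over the same stretch pEF had islands with 3.27- to 4.79-fold enrichment that covered nearly all of the far part of the gene. When only islands with an FDR below 1e-10 were kept, YAP1 was longer in pEF by a log2 fold change of -0.82 (limma adjusted p = 0.0285). Keeping islands with a fold of 2 or more gave -0.90 (limma adjusted p = 0.0392).

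**Figure D2:**
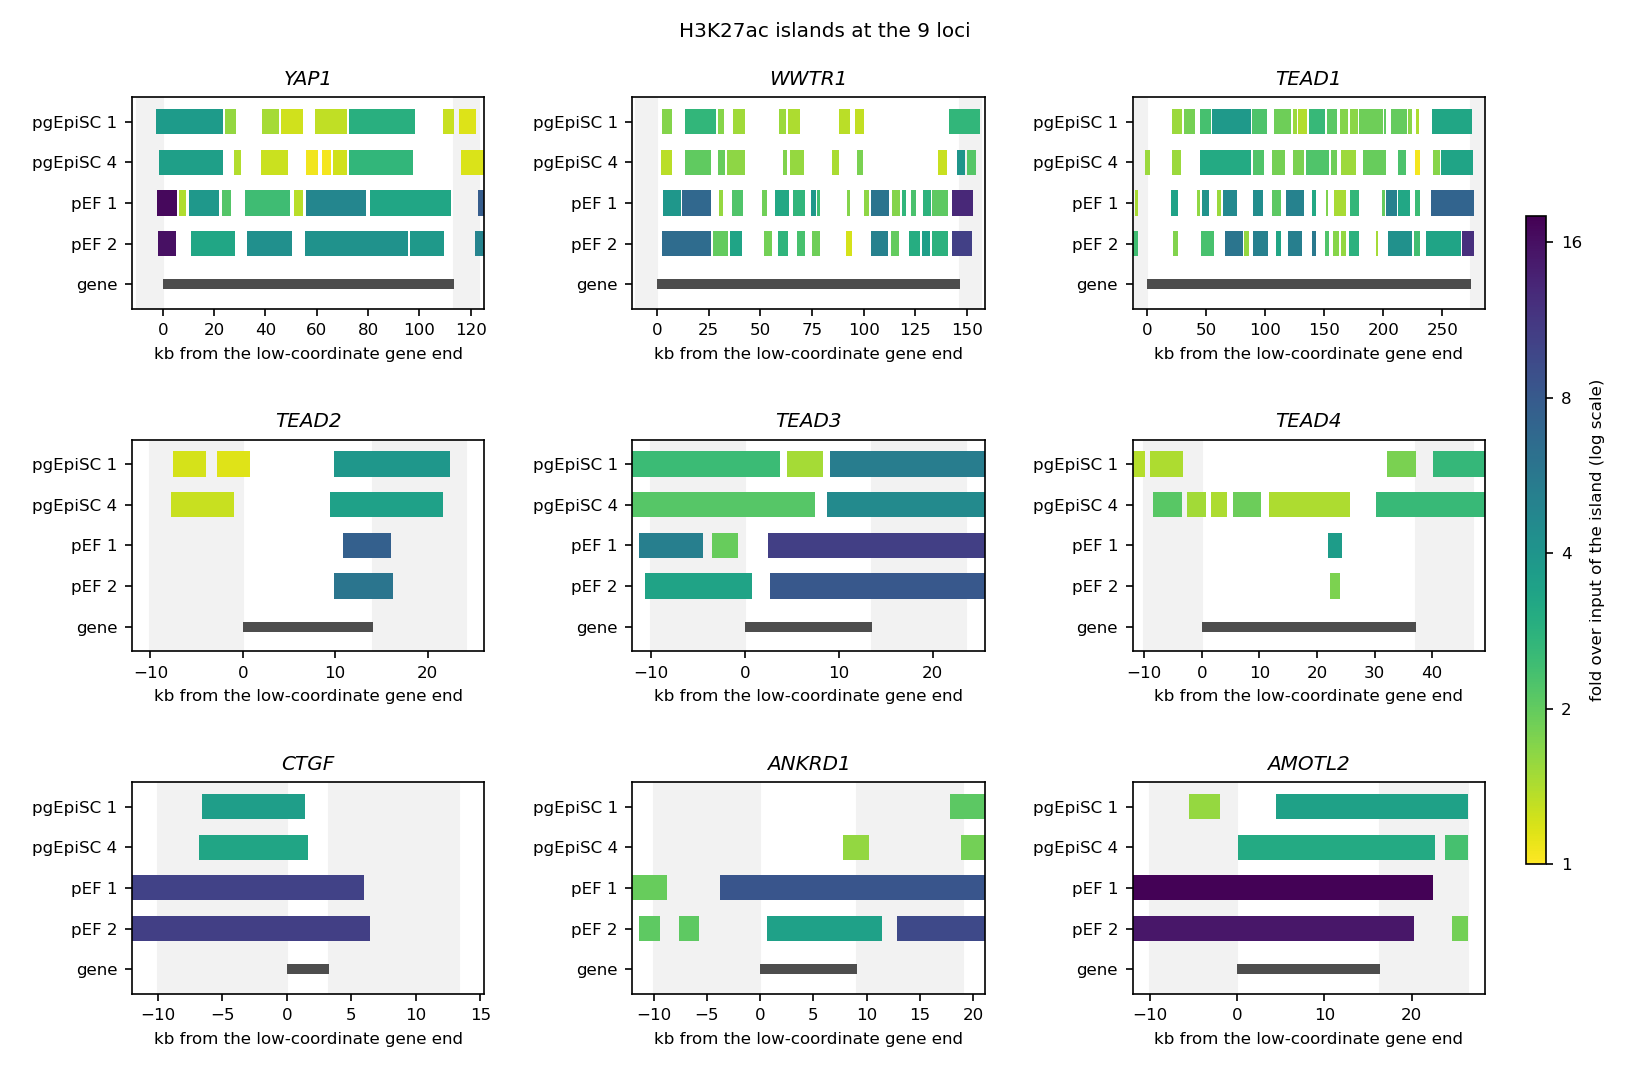
Islands of each library along the 9 loci, as distance in kb from the low-coordinate end of the gene, coloured by fold over input on a log scale; the dark bar is the gene, the grey bands are the 10 kb flanks and islands are drawn past the window's edge where they go on. At all 9 loci the darkest pEF island is darker than every pgEpiSC island of that locus, up to 17.7-fold at AMOTL2. Paler pEF islands lie beside it at several loci, among them YAP1, ANKRD1 and AMOTL2. At TEAD4, with 1 small pEF island per library inside the window, this rests on pEF 1 alone. The median fold of all islands was also higher in the pEF libraries.

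WWTR1, the gene of TAZ, had 62 and 58.2 kb under islands in pgEpiSC, against 90.0 and 94.8 kb in pEF. The groups did not overlap, and the log2 fold change was -0.61 ± 0.09 (SE; limma adjusted p = 0.0220). More separate islands lay over the gene in pEF, with 9 and 11 in pgEpiSC, against 18 and 14 in pEF. The stretch from about 103 to 112 kb of the gene held islands of 8.6 and 8.2 kb with 5.90- and 5.14-fold enrichment in the pEF libraries and none in pgEpiSC. Both coactivator genes therefore carried islands in all 4 libraries, and the test separated the cell types at WWTR1 while the YAP1 difference did not pass. Whether the 2 genes differ from each other in this was not tested.

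TEAD1, which codes for one of the 4 proteins that bring YAP and TAZ to DNA, is the longest of the loci. Its islands covered 209 and 185 kb in pgEpiSC, against 148 and 158 kb in pEF. Both pgEpiSC values were above both pEF values, but the log2 fold change of 0.36 ± 0.16 (SE) did not pass (limma adjusted p = 0.165), and it was -0.27 after centring and -0.27 when islands under 2-fold were dropped. A stretch from 42.3 to 87.9 kb inside the gene held a pgEpiSC island of 32.8 kb with 3.83-fold enrichment in library 1 and of 42.8 kb with 3.10-fold enrichment in library 4. The pEF libraries had several islands there, the widest 11.2 and 15.6 kb with 4.62- and 5.85-fold enrichment.

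TEAD2, a TEAD gene known for its expression in the early mouse embryo, had 19.8 and 19 kb under islands in pgEpiSC, against 5.2 and 6.4 kb in pEF. The groups were far apart, with a log2 fold change of 1.59 ± 0.16 (SE; limma adjusted p = 0.0105). That difference lay in the flanks. Inside the gene alone, 5.14 and 4.73 kb were covered in pgEpiSC, against 3.33 and 4.33 kb in pEF, and the log2 fold change of 0.31 did not pass (limma adjusted p = 0.273). The flanks hold other genes: CD37 overlaps TEAD2, and DKKL1 lies 0.041 kb past its high-coordinate end. CD37 had 13.2 and 12.4 kb in pgEpiSC, against 2.6 and 3.2 kb in pEF, and DKKL1 had 14.8 and 14.2 kb in pgEpiSC, against 6.2 and 7.4 kb in pEF. The windows of these genes share islands with TEAD2, so these values are not separate evidence, and to which gene an island belongs cannot be told apart.

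TEAD3 was the most completely covered of the 9 loci in every library but pEF 1, where AMOTL2 was fuller, with 32.0 and 32.4 kb of its window under islands in pgEpiSC, against 29.4 and 31.6 kb in pEF. These are 95.2% and 96.4% of the window in pgEpiSC, against 87.5% and 94% in pEF, and the median gene had 21.8% and 22.9% in pgEpiSC, against 14.1% and 13.4% in pEF. The log2 fold change of 0.08 ± 0.08 (SE) did not pass (limma adjusted p = 0.484). A window this full leaves little room for a difference in length, and the direction depended on the setting: it was -0.55 after centring, past the threshold (limma adjusted p = 0.0464), and 1.07 with a flank of 50 kb (limma adjusted p = 0.00303). The window also reaches RPL10A, a ribosomal protein gene, and the islands go on past it to TULP1, which lies 11.2 kb from the high-coordinate end.

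TEAD4, the trophectoderm factor of the mouse, had 18 and 47.2 kb under islands in pgEpiSC, against 2.4 and 1.8 kb in pEF. Both pgEpiSC libraries were above both pEF libraries, but they were themselves far apart, and the mean was 32.6 ± 20.6 kb in pgEpiSC, against 2.1 ± 0.42 kb in pEF (SD, n = 2 each). The log2 fold change was 3.29 ± 0.57 (SE; limma adjusted p = 0.0279), and without pgEpiSC 4 it was 2.62 (limma adjusted p = 0.0569). Library 4 carried islands along nearly the whole gene, whereas library 1 had 1 island of 5.0 kb at the high-coordinate end and others in the flanks. Inside the gene alone, 4.98 and 29.6 kb were covered in pgEpiSC, against 2.4 and 1.8 kb in pEF (log2 fold change 2.13, limma adjusted p = 0.237). The call also ended with islands of FDR below 1e-10 (limma adjusted p = 0.0815) and of 2-fold or more (limma adjusted p = 0.152). The chromatin of pEF was not silent nearby. Beyond the 10 kb flank, 21.0 to 28.4 kb past the high-coordinate end, pEF 1 had an island of 7.4 kb with 9.59-fold enrichment, and pEF 2 had an island of 2.8 kb with 10.7-fold enrichment 25 to 27.8 kb past it. Acetylation of pgEpiSC covered the same stretch, in library 1 with an island of 11.2 kb and 3.67-fold enrichment, and in library 4 with the island of 40.2 kb that also reached TEAD4. No other named gene lay under that region.

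CTGF, which encodes a secreted matrix-associated protein and is a standard readout of YAP activity, had 8.0 and 8.4 kb under islands in pgEpiSC, against 16 and 16.4 kb in pEF. The libraries of a type lay within 0.4 kb of each other, and the log2 fold change was -0.90 ± 0.11 (SE; limma adjusted p = 0.0154). Each library had 1 island over the gene. In pgEpiSC it began 6.6 and 6.8 kb before the low-coordinate end and stopped 1.40 and 1.60 kb into the gene, which is 3.3 kb long. In pEF it began 14.8 and 15.8 kb before that end and ran past the whole gene, with 10.2- and 10.5-fold enrichment, against 3.61- and 3.29-fold in pgEpiSC.

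ANKRD1, an ankyrin repeat protein of the nucleus and of the muscle sarcomere and another common YAP readout, had 1.26 and 2.66 kb under islands in pgEpiSC, against 24.1 and 19.5 kb in pEF. This was the largest difference toward pEF among the 9 genes, with a log2 fold change of -2.98 ± 0.34 (SE; limma adjusted p = 0.0136). Inside the gene, no island was called in pgEpiSC 1 and 1.26 kb were covered in pgEpiSC 4, against 9.08 and 8.46 kb in pEF. In pgEpiSC 4 that stretch belonged to an island of 2.4 kb that lay across the high-coordinate end and stopped 1.14 kb past it. Both pgEpiSC libraries also had an island of 6.8 and 6.6 kb that began 8.74 and 9.74 kb past that end, mostly outside the window. RPP30, a subunit of ribonuclease P, overlaps ANKRD1 in the annotation. It had 9.6 and 7.0 kb in pgEpiSC, against 23.1 and 16.2 kb in pEF (log2 fold change -1.14 ± 0.27, limma adjusted p = 0.0516), and the share of each gene in the common islands cannot be told apart.

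AMOTL2, an angiomotin-family protein of cell junctions that binds YAP and is itself a YAP target, had 25.6 and 25.2 kb under islands in pgEpiSC, against 32.5 and 32.0 kb in pEF. The groups did not overlap, and the log2 fold change was -0.33 ± 0.07 (SE; limma adjusted p = 0.0388). The pEF islands filled 89.1% and 87.9% of the window, against 70.2% and 69.1% in pgEpiSC, and went on beyond it. The length call ended when only islands with an FDR below 1e-10 (limma adjusted p = 0.0788) or of 2-fold or more (limma adjusted p = 0.112) were kept, without the flanks (limma adjusted p = 0.470) and when genes under a mean of 1 kb were dropped (limma adjusted p = 0.110). Of the 6 calls on length, those at WWTR1, CTGF, ANKRD1 and AMOTL2 did not pass when any 1 of the 4 libraries was left out (limma adjusted p 0.0514 to 0.128), with the direction kept. TEAD2 did not pass without pgEpiSC 1 (limma adjusted p = 0.0765) or without pgEpiSC 4 (limma adjusted p = 0.0764), and of these fits TEAD4 passed only in that without pgEpiSC 1 (limma adjusted p = 0.0436).

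Reads inside islands were then compared, since a read count goes on rising where length is capped by the window. They were tested with edgeR's quasi-likelihood test over the 13383 genes that had an island in all 4 libraries, and all 9 loci were among them. Values are in CPM, the count for every 1000000 reads in those loci after TMM scaling. The same 6 genes passed in the same directions as for length, 2 toward pgEpiSC and 4 toward pEF, where the shares of all tested genes were 26.2% toward pgEpiSC and 25.3% toward pEF. The median log2 fold change was -0.35 over the 9 loci and -0.00 over all tested genes. Length and reads come from the same islands and are not independent of each other.

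**Figure D3:**
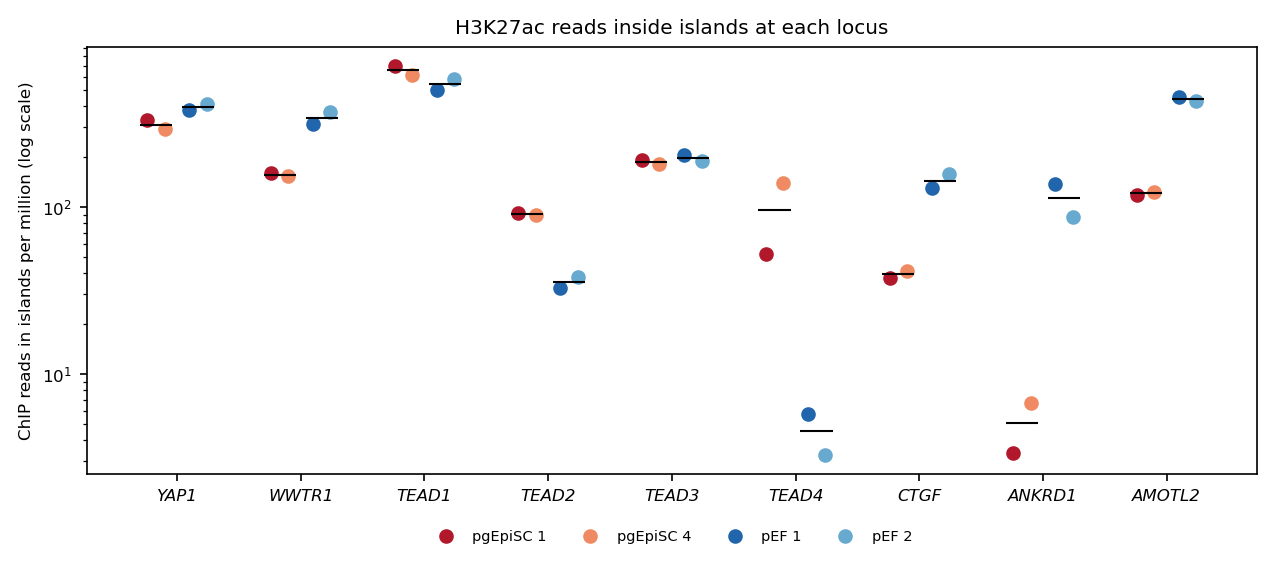
ChIP reads inside islands at each locus, in CPM on a log axis, 1 point per library, with black bars for the mean of the 2 libraries of a type. The pgEpiSC points lie at 118 and 123 CPM for AMOTL2, against 453 and 432 CPM in pEF, and the points of TEAD3 lie together between 180 and 205 CPM.

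The 3 target genes showed the clearest separation by reads. AMOTL2 had 118 and 123 CPM in pgEpiSC, against 453 and 432 CPM in pEF, a log2 fold change of -1.88 ± 0.18 (SE; edgeR adjusted p = 0.00152). The pEF islands over AMOTL2 held 37265 and 36352 reads and reached far beyond the window. The 16438 and 15792 pEF reads taken for the window rest on shares by length, which assume an even spread along an island. CTGF had 37.7 and 41.2 CPM in pgEpiSC, against 129 and 157 CPM in pEF, a log2 fold change of -1.86 ± 0.20 (SE; edgeR adjusted p = 0.00184). For ANKRD1 the values were 3.37 and 6.74 CPM in pgEpiSC, from 82 and 215 reads, against 138 and 87.2 CPM in pEF, from 4998 and 3188 reads. The 82 reads of pgEpiSC 1 are such a share by length. They come from an island of 444 reads that began 8.74 kb past the gene and lay mostly outside the window. The log2 fold change at ANKRD1 was -4.47 ± 0.45 (SE; edgeR adjusted p = 0.00162). The calls at all 3 genes held when any 1 library was left out, with edgeR adjusted p from 0.00120 to 0.0184.

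Among the coactivators, WWTR1 had 160 and 152 CPM in pgEpiSC, against 313 and 372 CPM in pEF, a log2 fold change of -1.13 ± 0.19 (SE; edgeR adjusted p = 0.00661). The groups did not overlap, but the call was lost without pgEpiSC 1 (edgeR adjusted p = 0.0543) and without pgEpiSC 4 (edgeR adjusted p = 0.0656). YAP1 had 330 and 293 CPM in pgEpiSC, against 382 and 414 CPM in pEF, and its log2 fold change of -0.35 ± 0.19 did not pass (edgeR adjusted p = 0.168).

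Within the TEAD family, TEAD4 and TEAD2 passed toward pgEpiSC, and TEAD1 and TEAD3 passed in neither direction. TEAD4 had 52.2 and 139 CPM in pgEpiSC, against 5.79 and 3.28 CPM in pEF, a log2 fold change of 4.40 ± 0.60 (SE; edgeR adjusted p = 0.00336), with a range of 3.53 to 4.93 when 1 library was left out. TEAD2 had 92.0 and 89.8 CPM in pgEpiSC, against 32.9 and 37.9 CPM in pEF, a log2 fold change of 1.36 ± 0.18 (SE; edgeR adjusted p = 0.00309). With 1 library left out, the TEAD2 value ranged from 1.26 to 1.45. As with length, the TEAD2 call ended without the flanks, at a log2 fold change of 0.34 (edgeR adjusted p = 0.317). TEAD1 had 695 and 620 CPM in pgEpiSC, against 501 and 583 CPM in pEF (log2 fold change 0.28 ± 0.20, edgeR adjusted p = 0.297). TEAD3 had 191 and 180 CPM in pgEpiSC, against 205 and 189 CPM in pEF (log2 fold change -0.09 ± 0.18, edgeR adjusted p = 0.703). The last of these overlapped between the cell types, and neither passed.

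**Figure D4:**
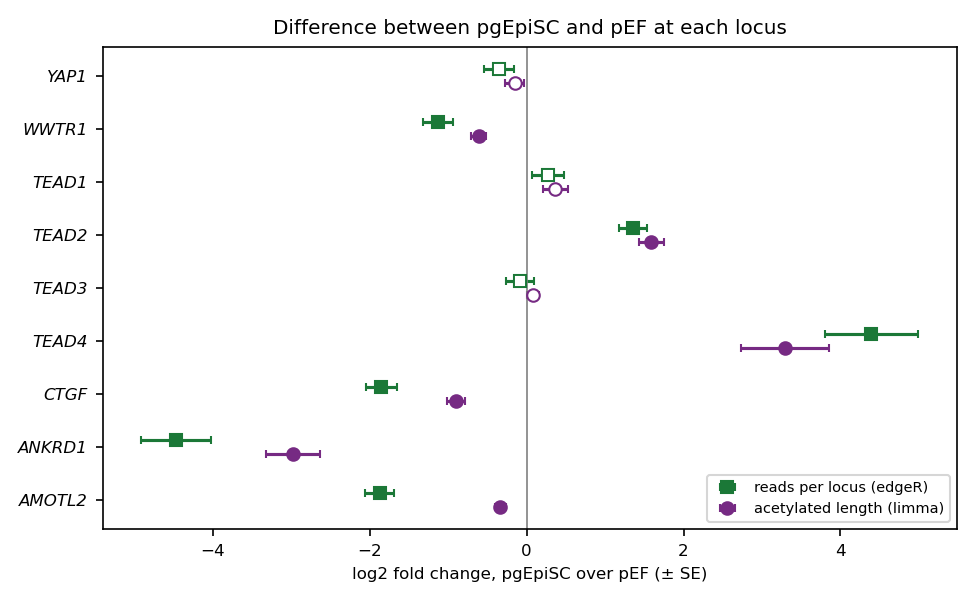
Log2 fold change of pgEpiSC over pEF at each locus with its standard error, as squares for reads (edgeR) and circles for acetylated length (limma); filled symbols passed an adjusted p of 0.05 and white ones did not. TEAD4 and ANKRD1 lie farthest from 0, at 4.40 and -4.47 by reads, and AMOTL2 differs most between the measures, at -1.88 by reads and -0.33 by length.

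To compare loci of unlike length with each other, reads were divided by the length of the window. In pgEpiSC, TEAD3 came first with 5.53 ± 0.23 CPM per kb (SD, n = 2), before AMOTL2 with 3.31 ± 0.10, TEAD2 with 2.66 ± 0.04, YAP1 with 2.34 ± 0.20 and TEAD1 with 2.24 ± 0.18. CTGF with 1.69 ± 0.10 and TEAD4 with 1.67 ± 1.07 followed, and WWTR1 with 0.939 ± 0.034 and ANKRD1 with 0.174 ± 0.082 CPM per kb came last. Within each library YAP1 was slightly above TEAD1, with 2.48 against 2.36 in library 1 and 2.20 against 2.11 in library 4. TEAD4, whose libraries had 0.913 and 2.43 CPM per kb, was below TEAD2 in both. Its order with YAP1, TEAD1, CTGF and WWTR1 changed between the libraries. In pEF the order was AMOTL2 with 12.1 ± 0.41, CTGF with 6.13 ± 0.83, TEAD3 with 5.87 ± 0.34, ANKRD1 with 3.87 ± 1.23, YAP1 with 2.99 ± 0.17, WWTR1 with 2.06 ± 0.25, TEAD1 with 1.84 ± 0.20, TEAD2 with 1.04 ± 0.10 and TEAD4 with 0.079 ± 0.031 CPM per kb. There the order of CTGF and TEAD3, and that of ANKRD1 and YAP1, changed between the libraries. WWTR1 was above TEAD1 in both, with 1.88 against 1.70 in pEF 1 and 2.24 against 1.98 in pEF 2. Differences between loci were not tested. The median gene had 0.859 and 0.874 CPM per kb in the pgEpiSC libraries, against 0.819 and 0.816 in the pEF libraries.

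Enrichment over input, the ChIP reads in islands of a locus over the scaled input reads, was higher in pEF at the median gene and is therefore given with its percentile in the library. The median gene had 2.20 and 1.98 in pgEpiSC, against 5.97 and 5.57 in pEF. AMOTL2 had 3.23 and 3.06 in pgEpiSC, at the 85.7th and 90.6th percentiles, against 17.7 and 14.4 in pEF, at the 99.1st and 98.3rd percentiles. CTGF lay at the 91.5th and 93.6th percentiles in pgEpiSC and at the 88.3rd and 92.2nd in pEF, so it stood high among the genes of its library in both cell types. YAP1 lay at the 61.1st and 70.8th percentiles in pgEpiSC and at the 27.7th and 41.6th in pEF, and TEAD1 at the 62.6th and 72.6th in pgEpiSC and at the 24.1st and 26.1st in pEF. WWTR1, called toward pEF, lay at the 39.7th and 46.1st in pgEpiSC and at the 28.6th and 31.2nd in pEF. For ANKRD1 they were the 41.9th and 19.1st in pgEpiSC and the 74th and 45.6th in pEF. TEAD2 lay at the 75.5th and 83.5th in pgEpiSC and at the 69.6th and 54.1st in pEF. For TEAD3 they were the 92.4th and 93.8th in pgEpiSC and the 80.6th and 64.7th in pEF. TEAD4 in pEF, from 1 small island per library, lay at the 15th and 0.611th percentiles, against the 32.8th and 50.4th in pgEpiSC.

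The most enriched island of each locus is shown in the plot of island width against enrichment. In pgEpiSC these islands ranged from 1.85-fold at ANKRD1 to 5.33-fold at TEAD3, and in pEF from 1.77-fold at TEAD4 to 17.7-fold at AMOTL2. The YAP1 island at the low-coordinate end was at the 99th and 99.2nd percentiles of all pEF islands by enrichment and was no wider than 8.0 kb. At WWTR1 the islands at the high-coordinate end had 13- and 10.4-fold enrichment in pEF. They were 10 and 9.8 kb wide. At ANKRD1 and AMOTL2 the most enriched pEF islands were also wide. At ANKRD1 that island in pEF 2 began 3.74 kb past the high-coordinate end. The pEF 2 island over the ANKRD1 gene itself, 10.8 kb wide, had 3.48-fold enrichment.

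**Figure D5:**
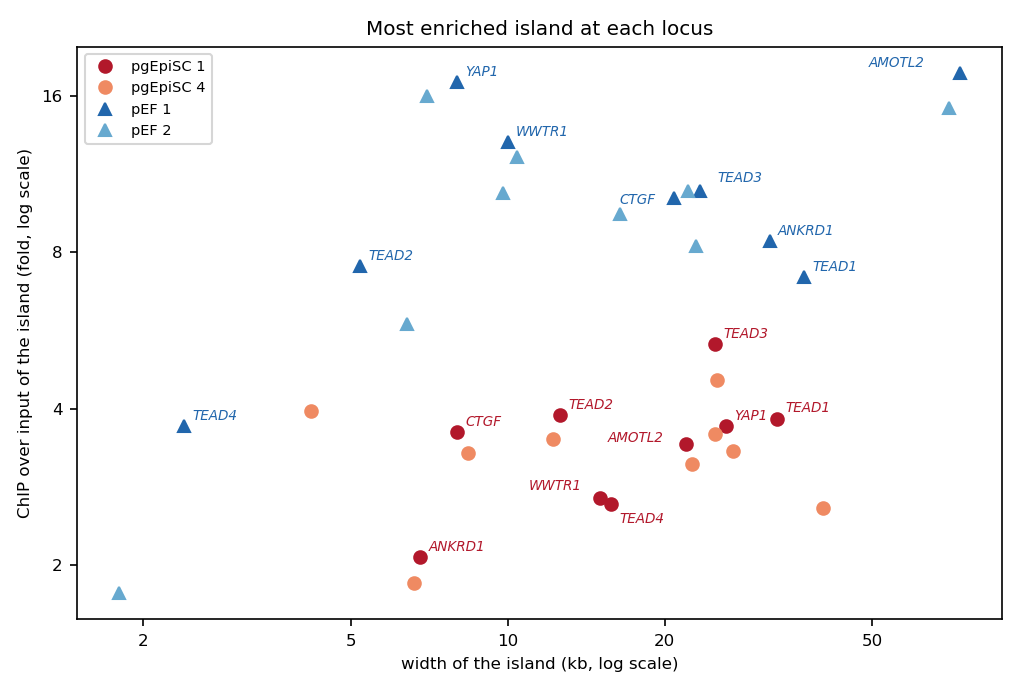
Width in kb against fold over input, both on log axes, of the most enriched island at each locus in each library, with circles for pgEpiSC and triangles for pEF; names are given for libraries 1. Apart from TEAD4, every pEF island has a higher fold than the pgEpiSC islands, and AMOTL2 in pEF stands at 73.6 and 70.2 kb with 17.7- and 15.1-fold enrichment.

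The reference used gives no strand, so acetylation at transcription starts was read within 2 kb of either gene end. An island lay at a gene end in all 4 libraries at 7 of the 9 genes, where 67.8% of all genes did the same. TEAD4 had islands at a gene end in both pgEpiSC libraries and in no pEF library, a pattern of 7.31% of all genes. ANKRD1 had them in pgEpiSC 4 and in both pEF libraries. In most genes 1 end stood out, the low-coordinate end at YAP1 and the high-coordinate end at WWTR1, TEAD1, TEAD2 and TEAD3. The island at the WWTR1 high-coordinate end had 2.69- and 3.97-fold enrichment in pgEpiSC, against 13- and 10.4-fold in pEF. At the TEAD1 high-coordinate end the enrichment was 3.24- and 3.32-fold in pgEpiSC, against 7.18- and 12.2-fold in pEF.

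Islands of the 4 libraries were merged where they overlapped by at least 1 bp, which gave 44 regions at the 9 loci of 101305 in all. A region that reached past a window was taken whole, with its islands outside the window. Of the 44, 20 regions (45.5%) held an island in all 4 libraries, against 20.2% of all regions. Regions with islands in both pgEpiSC libraries and no pEF library numbered 3 (6.82%, against 21.9% of all regions), 1 each at WWTR1, TEAD2 and TEAD4. Those with islands in both pEF libraries and no pgEpiSC library numbered 8 (18.2%, against 17.7%), and 6 of these lay in WWTR1. The other 2 were at TEAD1 and ANKRD1. YAP1 consisted of 4 regions, each present in all 4 libraries. Long loci give more and wider regions, and the share of regions found in all 4 libraries was not matched for width.

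The 20 shared regions were compared by reads with edgeR's quasi-likelihood test over all 20498 such regions, with 22.7% of them called toward pgEpiSC and 23.4% toward pEF. At the 9 loci, 3 regions were higher in pgEpiSC and 5 in pEF. Higher in pgEpiSC were the TEAD1 stretch from 42.3 to 87.9 kb (log2 fold change 1.14 ± 0.26, edgeR adjusted p = 0.0202), the high-coordinate end of TEAD2 with DKKL1 (1.14 ± 0.18, edgeR adjusted p = 0.00775) and the region from 30.2 to 70.4 kb at TEAD4 (1.56 ± 0.26, edgeR adjusted p = 0.00833). Among the 7 shared regions of TEAD1, only this 1 passed, and its neighbours had log2 fold changes of -0.35 to 0.62. The TEAD4 region lay mostly past the gene, which is 37.2 kb long. Its pEF islands were all outside the window, 13.2 to 28.4 kb past the high-coordinate end. Higher in pEF were the WWTR1 stretch from 2.0 to 42.6 kb (log2 fold change -0.85 ± 0.23, edgeR adjusted p = 0.0339), the high-coordinate end of WWTR1 (-0.95 ± 0.21, edgeR adjusted p = 0.0182) and the regions of CTGF (-2.10 ± 0.24, edgeR adjusted p = 0.00307), ANKRD1 (-3.39 ± 0.21, edgeR adjusted p = 0.00132) and AMOTL2 (-2.72 ± 0.19, edgeR adjusted p = 0.00141). None of the 4 YAP1 regions passed, with edgeR adjusted p from 0.0515 to 0.665, and the TEAD3 region did not (0.42 ± 0.18, edgeR adjusted p = 0.112). Under alternatives, the second YAP1 region from the low-coordinate end passed toward pEF with DESeq2 (-0.90, adjusted p = 0.0273) and without pEF 1 (-1.13, edgeR adjusted p = 0.0190), and the third passed toward pEF without pEF 2 (-0.50, edgeR adjusted p = 0.0476). Without pEF 1 the TEAD3 region passed toward pgEpiSC (0.53, edgeR adjusted p = 0.0350), as did a further TEAD1 region (1.2, edgeR adjusted p = 0.0395), and another TEAD1 region passed toward pgEpiSC without pEF 2 (0.55, edgeR adjusted p = 0.0365). Without pgEpiSC 1 or without pgEpiSC 4, the WWTR1, TEAD1 and TEAD2 calls were lost, the TEAD4 call was lost without pgEpiSC 4 only, and the CTGF, ANKRD1 and AMOTL2 regions remained higher in pEF.

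The AMOTL2 region, at 77.6 kb, was the widest of the 44. In pEF the island over the gene was 73.6 kb wide in library 1 and 70.2 kb in library 2, against 22 and 22.6 kb for the widest pgEpiSC islands. It held 37265 and 36352 reads in pEF, which made it number 4 and number 7 by reads among the islands of the chromosomes studied, against 2727 and 3676 reads and ranks of 717 and 545 in pgEpiSC. In the coordinates of the lists, whose build is not named, the pEF 1 island ran from 75439801 to 75513400 on chromosome 13. It began 51.1 kb before the low-coordinate end of AMOTL2 in pEF 1 and 49.9 kb before it in pEF 2, and no other named gene lay under it. In pgEpiSC the same upstream stretch held islands of 8.8 and 6.6 kb with 1.98- and 2.16-fold enrichment about 40 kb from the gene, and others of 1.8 to 3.6 kb.

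The rest of the pathway was read from 3 lists of genes. Of 18 upstream kinases and regulators, 7 were longer in pgEpiSC, 3 were longer in pEF and 8 did not pass by length (limma), with a median log2 fold change of 0.42, where 31.9% of all genes were longer in pgEpiSC and 10.9% in pEF. By reads, 2 were higher in pgEpiSC and 5 in pEF (edgeR), with a median of -0.24, beside shares of all tested genes of 26.2% toward pgEpiSC and 25.3% toward pEF. The largest differences in length were at FAT4, an atypical cadherin, with 2.1 ± 0.42 kb in pgEpiSC, against 50.7 ± 2.7 kb in pEF (SD, n = 2 each; log2 fold change -4.07, limma adjusted p = 0.0030), and at STK4, the gene of MST1, with 7.7 ± 3.0 kb in pgEpiSC, against 42.9 ± 0.85 kb in pEF (-2.38, limma adjusted p = 0.0157). The opposite direction was seen at LATS1, with 22.2 ± 3.7 kb in pgEpiSC, against 3.68 ± 0.14 kb in pEF (2.30, limma adjusted p = 0.00779), and at the kinase adaptor MOB1A, with 16.3 ± 1.6 kb in pgEpiSC, against 4.8 ± 0.57 kb in pEF (1.58, limma adjusted p = 0.0127). By reads, FAT4, STK4 and LATS1 passed in the same directions as by length. MOB1A did not pass by reads (log2 fold change 0.39 ± 0.23, edgeR adjusted p = 0.201). STK4 and LATS1, kinases of the same cascade, thus differed in opposite directions.

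Of 10 other partners and inhibitors of YAP, TAZ and TEAD, 2 were longer in pgEpiSC, 3 were longer in pEF and 5 did not pass (limma), with a median of 0.13, beside 31.9% and 10.9% of all genes. Reads could be tested for 8 of them, and 0 passed toward pgEpiSC and 4 toward pEF (edgeR), with a median of -0.82, beside 26.2% and 25.3% of all tested genes. VGLL3 and VGLL4, vestigial-like proteins that bind TEAD, were longer in pEF. VGLL3 had 12.3 ± 3.8 kb in pgEpiSC, compared with 59.9 ± 0.14 kb in pEF (log2 fold change -2.22, limma adjusted p = 0.0130), and VGLL4 had 46.3 ± 1.5 kb in pgEpiSC, compared with 99.9 ± 0.76 kb in pEF (-1.09, limma adjusted p = 0.00699). AMOT, the angiomotin gene and a relative of AMOTL2, had 1.8 ± 0.28 kb in pgEpiSC, compared with 7.3 ± 0.71 kb in pEF (-1.57, limma adjusted p = 0.0142). VGLL2 passed toward pgEpiSC from 1.0 kb of its window under islands in each pgEpiSC library and none in pEF, which is a very small length.

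The third list held 19 genes of a 22-gene YAP and TAZ target signature, whose other 3 genes are CTGF, ANKRD1 and AMOTL2. By length 6 were longer in pgEpiSC, 7 were longer in pEF and 6 did not pass (limma), with a median of -0.47, beside 31.9% of all genes longer in pgEpiSC and 10.9% in pEF. By reads 2 were higher in pgEpiSC and 10 in pEF among 17 tested (edgeR), with a median of -0.80, beside 26.2% and 25.3% of all tested genes. CCDC80, a matrix protein, had 11.9 ± 0.99 kb in pgEpiSC, compared with 50.7 ± 7.2 kb in pEF (log2 fold change -2.0, limma adjusted p = 0.00690), and NT5E, the ectonucleotidase CD73, had 6.4 ± 0.85 kb in pgEpiSC, compared with 31.8 ± 3.4 kb in pEF (-2.15, limma adjusted p = 0.00665). Others lay the opposite way. IGFBP3, an insulin-like growth factor binding protein, had 8.84 ± 2.6 kb in pgEpiSC, while pEF had no island (3.27, limma adjusted p = 0.00656), and DOCK5, a guanine nucleotide exchange factor, had 58.2 ± 0.57 kb in pgEpiSC, compared with 13.7 ± 3.3 kb in pEF (2.03, limma adjusted p = 0.0102). The signature was not derived from these cells, and LATS2 and PTPN14 stand in 2 of the 3 lists.

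The genes closest in pattern were found by Euclidean distance over log2(kb + 1) in the 4 libraries, among genes whose windows do not overlap. The nearest to CTGF were TCTN1 at a distance of 0.20, KLF2 at 0.20 and KCTD18 at 0.21. KLF2, a zinc finger transcription factor, had 7.8 and 7.6 kb in pgEpiSC, against 16.6 and 18.2 kb in pEF. The nearest to TEAD4 were PARP1 at 0.16, HMCN2 at 0.49 and ADAP1 at 0.58, and PARP1 showed a similar gap between the pgEpiSC libraries, with 19.2 and 43.0 kb in pgEpiSC, against 2.4 and 1.8 kb in pEF.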

How the data were processed

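H3K27ac ChIP-seq and input were sequenced for pgEpiSC and pEF, 8 libraries in all, and 1 island list per H3K27ac library was analysed. BWA 0.7.15, SAMtools 0.1.19 and SICER 1.1 are named per the submitters' processing notes; duplicate removal, read filters and genome build are not given in the sources used here. Deposited count columns give whole ChIP and input reads per island. The deposited p-value columns hold a p-value and an FDR, and a further deposited column gives the fold, a ratio of ChIP to scaled input reads. The lists are not limited by FDR, which reaches 1.

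Scaffold names with the prefix of the current pig assembly occurred in all 4 lists. Gene ends of the Sscrofa11.1 table lay in islands in 41.1% to 48.8% of cases, against 15.5% to 25.4% for places 50 kb away, so that table was used; it holds no strand. Sequences were not used here, and the planned promoter motif search was not run. Gene start windows became windows of 2 kb around both gene ends.

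Acetylated length was tested with limma 3.58.1 (trend, log2(kb + 1)), and read counts per locus with edgeR 4.0.16 (quasi-likelihood, TMM), in R 4.3.3. Reads of an island that crosses a window's edge were shared by length and the sums rounded. All p-values were Benjamini-Hochberg adjusted over all genes or regions tested. Scripts were tested on simulated data. With 2 libraries a type an exact permutation test could not go below p = 0.333. Intervals for counts are not given, since reads without molecular identifiers are not independent molecules.

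Named were all 9 members, up to 4 genes of each pathway list with the largest change past the threshold, neighbours, and the 3 genes nearest in pattern to CTGF and TEAD4. The members and lists were chosen with earlier results of these data known. Alternatives were island filters, pseudocounts, flanks, centring, DESeq2 1.42.0, no TMM and leaving out each library.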

Additional observations from a re-analysis of the deposited data

How the results depend on the processing

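No paired analysis was possible because no label links a pgEpiSC library with a pEF library. With islands of FDR below 1e-10, at least 2-fold enrichment or no flank, the genes longer in pgEpiSC numbered 1, 1 and 0, against 2 in the report, and without 1 library 0 to 1; those longer in pEF numbered 4, 0 without 1 library and 3 to 6 otherwise. Such fits have 1 library fewer and so fewer degrees of freedom. By reads, genes higher in pgEpiSC numbered 1 with islands of at least 2-fold enrichment and 1 with no flank, and 2 otherwise. ANKRD1 and TEAD4 have no read value under the 2-fold filter, nor ANKRD1 without flanks, because a library then has no island. Regions in both pgEpiSC libraries only numbered 3, against 0 with the FDR filter, 0 with the 2-fold filter and 3 to 8 without 1 library. Regions in both pEF libraries only numbered 8, against 13 with the 2-fold filter. For reads of shared regions, chosen as an alternative after seeing the data, leaving out 1 library left 0 to 5 regions called toward pgEpiSC and 3 to 6 toward pEF. For length and reads of the 9 loci, directions turned in 5 cases, none of them called in the report: length of TEAD1 (-0.27 with the 2-fold filter, -0.27 after centring), length of TEAD3 (-0.012 with the FDR filter, -0.55 after centring) and reads of TEAD3 (0.37 with the 2-fold filter). For reads of shared regions, they turned in 2, neither of them called: counted from the low-coordinate end, the fourth YAP1 region (-0.19, against 0.027 without pgEpiSC 1) and the sixth of all merged TEAD1 regions (-0.25, against 0.27 without pEF 2); the cause was not tested. Over all genes, the share longer in pgEpiSC was 7.06% and in pEF 16.5% with the 2-fold filter, against 31.9% and 10.9%. In fits without 1 library the lone library of a type is assumed to vary like the other type's.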

Other observations

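Further genes of the pathway lists, chosen after their values were seen, showed how full some pEF loci were. CRIM1, a transmembrane regulator of growth factor signalling, had 106 and 95.4 kb under islands in pgEpiSC, against 215.2 and 214.6 kb in pEF, of a window of 223.3 kb. The whole window of CYR61 (CCN1, the closest relative of CTGF), 22.8 kb, was covered in both pEF libraries, against 14.8 kb in each pgEpiSC library, with a log2 fold change of reads of -1.93 ± 0.18 (edgeR adjusted p = 0.00142). GADD45A, a stress-response gene, had 11.1 and 7.4 kb in pgEpiSC, against 22.4 and 20.6 kb in pEF (log2 fold change of length -1.16 ± 0.23, limma adjusted p = 0.0382). TGFB2, a transforming growth factor ligand, had 24.2 and 38.3 kb in pgEpiSC, against 81.6 and 83.3 kb in pEF (-1.41 ± 0.27, limma adjusted p = 0.0333).

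Among genes longer in pgEpiSC, ASAP1 had 206 and 228 kb in pgEpiSC, against 44.4 and 68.4 kb in pEF (1.96 ± 0.27, limma adjusted p = 0.0187), and the regulator WWC1 (KIBRA) had 166 and 163 kb in pgEpiSC, against 62.4 and 53.8 kb in pEF (1.49 ± 0.13, limma adjusted p = 0.00839). LATS2, a YAP kinase and itself a YAP target, had 27 and 34.4 kb in pgEpiSC, against 11.6 and 13.2 kb in pEF (1.24 ± 0.17, limma adjusted p = 0.0185), while its reads did not pass (log2 fold change 0.70 ± 0.25, edgeR adjusted p = 0.0624). Next to TEAD3, TULP1 had 30.5 and 33.7 kb in pgEpiSC, against 13.7 kb in each pEF library (1.17 ± 0.09, limma adjusted p = 0.00757).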
